A study of Homo sapiens with 12 samples.

Results

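Persister cells (PC), cells that outlived inhibition of the MAPK pathway and had been without drug for 2 days, were compared with untreated control cells (CC) by RNA sequencing. The comparison took the 3 PC and the 3 CC libraries by their labels, that is 6 of the 12 libraries of the study, and every gene of the count table. All cells were A375, a human melanoma line from ATCC that carries the V600E form of the kinase BRAF. CC received the solvent DMSO for 72 h and were then harvested. PC received 500 nM vemurafenib, an inhibitor of BRAF, together with 500 nM cobimetinib, an inhibitor of MEK, for 72 h, were washed, and were grown in medium without drug for 2 days. The other 6 libraries were 3 of treated cells (TC), harvested at the end of the same 72 h of both drugs, and 3 of recovered cells (RC), grown for 9 days after the drugs. The base medium, DMEM, held no glutamine and was supplemented with it together with serum, and the labels do not repeat these additions for the drug-free DMEM of PC and RC. The labels call each harvest a batch, with CC and TC in the first and PC in the second. In every group the RNA was cytoplasmic RNA from which ribosomal RNA had been depleted. PC were harvested 2 days after CC, and no DMSO library of the PC harvest day was used here, so that treatment and harvest day cannot be told apart in any difference between PC and CC. The labels number the replicates but do not say that they came from separate cultures, so that p-values measure the spread between these libraries only.

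In melanoma cells with an active BRAF, signals run through MEK to ERK, which keeps a set of feedback inhibitors, early transcription factors and cyclins transcribed and drives the cells into division. When the pathway is blocked, most cells stop dividing or die, and some remain alive without a resistance mutation. Such drug-tolerant cells are known to change lineage state, between a pigmented state run by the transcription factor MITF, a neural crest state marked by the nerve growth factor receptor NGFR, and a mesenchymal state marked by the receptor kinase AXL, and to return to division once the drug is gone.

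PC libraries held between 37773389 and 46313833 counts and CC libraries between 40430417 and 47497943. Levels are given as CPM, counts relative to the normalized library size, and the 3 values of a group stand in the order of replicates 1 to 3. On the first principal component, which held 69.5% of the variance, the PC libraries lay between -90.1 and -88.1 and the CC libraries between 84.1 and 87.2. All 10 melanocytic markers were measured in PC, with their summed level between 4903 and 6479 CPM against 3912 to 5072 CPM in CC. The sum mixes markers that rose with markers that fell, and does not give the course of each. DCT, a large part of it in PC, was at 444, 337 and 441 CPM in CC and 3178, 2673 and 1956 CPM in PC. MITF was at 307, 303 and 476 CPM in CC and 288, 228 and 147 CPM in PC. SOX10, the lineage factor of melanocytes and their precursors, was at 992, 902 and 923 CPM in PC and at 663, 650.3 and 664 CPM in CC, whereas MLANA stayed under 2 CPM in all 6 libraries. The summed markers of fibroblasts were between 25.4 and 36.0 CPM in PC against 43.0 to 57.6 CPM in CC, and those of epithelium between 12.8 and 14.8 CPM against 84.7 to 108 CPM. Markers of fibroblasts (DCN, COL1A2, THY1), T cells (CD3E) and endothelium (PECAM1, CDH5) were at 0 or below 0.05 CPM in all 6 libraries. Other fibroblast markers were present and moved in opposite directions. COL1A1 rose from 0.765, 0.588 and 0.296 CPM in CC to 2.02, 4.87 and 3.84 CPM in PC (log2 fold change 2.70 ± 0.44 SE, adjusted p = 1.47e-04). PDGFRA fell from 3.88, 4.57 and 2.94 CPM to 1.52, 1.26 and 0.926 CPM (log2 fold change -1.62 ± 0.24 SE, adjusted p = 6.10e-05). COL1A1 and PDGFRA were a small part of the fibroblast sum in CC, and the markers that made up most of it are not given here. The members of the epithelial sum are not given either. The part of other cell types in the results was not tested. In bulk RNA, fewer cells with a transcript and less of it per cell cannot be told apart.

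Most of the genes tested differed between PC and CC. Among 15916 genes, PC exceeded CC at 5291 (33.2%) and lay below CC at 5714 (35.9%), at an adjusted p under 0.05 (edgeR quasi-likelihood test), and the median log2 fold change over all of them was -0.04. A test against a 1.5-fold change called 2731 genes (17.2%) higher and 3168 (19.9%) lower, and these are the genes called "beyond 1.5-fold" in what follows. Fewer genes passed the test between PC and TC, a comparison that uses the same PC libraries and covers the 2 days without drug together with a harvest 2 days later. PC exceeded TC at 1944 genes (12.2%) and lay below TC at 1992 (12.5%), and beyond 1.5-fold at 371 (2.33%) and 183 (1.15%). Both counts were smaller with any 1 PC or TC library left out. They were 1381 higher and 1259 lower without PC replicate 3, 1429 and 1325 without PC replicate 2, and 1408 and 1405 without TC replicate 2. These percentages are the background against which the members of each gene group are read.

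**Figure D1:**
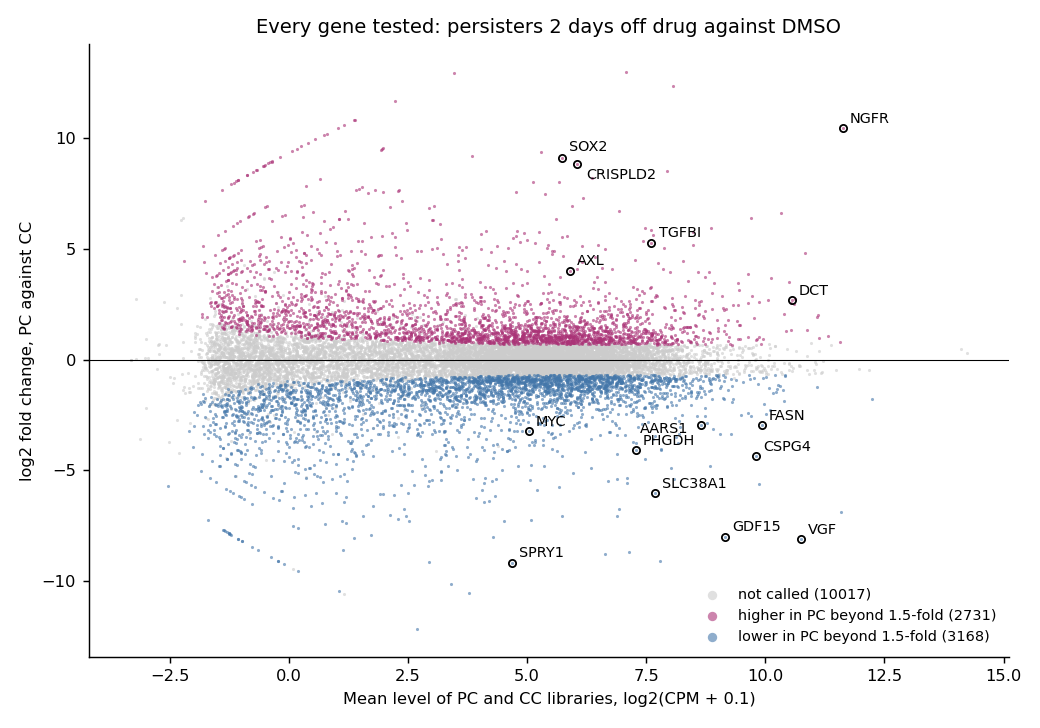
Each point is 1 of the 15916 genes tested, with the mean level of the PC and CC libraries as log2(CPM + 0.1) on the x axis and the log2 fold change of PC against CC on the y axis; colours mark the 2731 genes higher and 3168 lower in PC beyond 1.5-fold. NGFR lies at a log2 fold change of 10.45, and VGF and GDF15 fell by 8.12 and 7.99 on the log2 scale from high levels in CC.

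PC carried transcripts of the neural crest state. Of 14 neural crest and early lineage genes tested, 7 were higher and 3 lower than in CC beyond 1.5-fold, with a median log2 fold change of 1.32 against -0.04 over all genes. NGFR (hg38 chr17:49495293-49515008, plus strand) was at 5.68, 4.52 and 3.41 CPM in CC and at 6005, 6259 and 6677 CPM in PC (log2 fold change 10.45 ± 0.25 SE, adjusted p = 2.43e-11). Every PC library was more than 1000 times above every CC library. SOX2, a transcription factor of stem cells and early neural cells (hg38 chr3:181711925-181714436, plus strand), was at 0.148, 0.316 and 0.106 CPM in CC and at 94.4, 103 and 119 CPM in PC (log2 fold change 9.10 ± 0.21 SE, adjusted p = 2.42e-11). SOX10 rose by less than 1.5-fold (log2 fold change 0.51 ± 0.05 SE, adjusted p = 2.52e-06), with no overlap between the groups. Other factors of the same lineage fell. RXRG, a retinoid X receptor, went from 208, 202 and 198 CPM to 5.05, 5.39 and 3.33 CPM (log2 fold change -5.46 ± 0.18 SE, adjusted p = 1.99e-10). TFAP2B, an AP-2 factor of the neural crest, went from 85.0, 69.5 and 83.2 CPM to 2.91, 2.74 and 2.75 CPM (log2 fold change -4.82 ± 0.17 SE, adjusted p = 3.83e-10). For both genes all PC libraries lay below all CC libraries. NGFR and SOX2 were also higher in PC than in TC, NGFR with a log2 fold change of 0.50 ± 0.16 (adjusted p = 0.0430) and SOX2 with one of 0.54 ± 0.12 (adjusted p = 0.00756), and RXRG was lower than in TC (log2 fold change -0.89 ± 0.17 SE, adjusted p = 0.00257). In RC, NGFR was at 21.9, 18.9 and 15.3 CPM and SOX2 at 3.20, 3.56 and 3.31 CPM, between the levels of CC and PC.

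Pigment genes were split. Of 16 tested, 6 were higher and 4 lower in PC beyond 1.5-fold, with a median of 0.42. DCT, the dopachrome tautomerase of melanin synthesis (hg38 chr13:94436811-94479682, minus strand), was at 444, 337 and 441 CPM in CC and at 3178, 2673 and 1956 CPM in PC (log2 fold change 2.68 ± 0.19 SE, adjusted p = 9.41e-08). The melanosome protein PMEL stood at 75.3, 63.4 and 71.7 CPM in CC and at 358, 321 and 187 CPM in PC (log2 fold change 2.04 ± 0.25 SE, adjusted p = 1.26e-05). TYRP1, a melanosomal enzyme, was at 4.25, 3.80 and 2.88 CPM and at 16.3, 19.2 and 12.8 CPM (log2 fold change 2.15 ± 0.18 SE, adjusted p = 5.51e-07). For these 3 genes the lowest PC library was above the highest CC library. MITF itself was at 307, 303 and 476 CPM in CC and at 288, 228 and 147 CPM in PC (log2 fold change -0.71 ± 0.25 SE, adjusted p = 0.0230). This call rested on single libraries, since the adjusted p was 0.123 without CC replicate 3 and 0.0888 without PC replicate 3. PPARGC1A, a coactivator of mitochondrial genes, fell from 78.1, 88.3 and 91.4 CPM to 28.6, 23.5 and 14.7 CPM (log2 fold change -1.95 ± 0.23 SE, adjusted p = 9.85e-06), and ST3GAL6, a sialyltransferase, from 97.4, 111 and 127 CPM to 28.7, 28.6 and 25.7 CPM (log2 fold change -2.02 ± 0.10 SE, adjusted p = 4.20e-09). Against TC, none of the 16 genes passed as higher and 7 were lower by the quasi-likelihood test (3 beyond 1.5-fold), with a median of -0.49 against 0.00 over all genes. DCT stood at 7869.8, 6234 and 5263 CPM in TC, above each PC library (log2 fold change -1.31 ± 0.18 SE, adjusted p = 2.81e-04), and PMEL was likewise lower in PC than in TC (log2 fold change -1.09 ± 0.24 SE, adjusted p = 0.00605).

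MITF binds the M-box, here searched for as TCATGTG on both strands in the 250 bases before the transcription start (RefSeq promoters, GRCh38.p14). It occurred in 4 of 14 promoters of the pigment list (28.6%), and in 168 of 11587 promoters of tested genes (1.45%). The 4 were those of TYRP1, TYR, SLC24A5 and GPNMB, which did not move together. SLC24A5 fell against CC (log2 fold change -1.65 ± 0.18 SE, adjusted p = 4.04e-06) and GPNMB did not pass the test (log2 fold change -0.23 ± 0.20 SE, adjusted p = 0.326). The stretches before the starts of TYRP1 (chr9:12693135-12693384, plus strand) and TYR, the tyrosinase gene (chr11:89177755-89177874, plus strand), are shown because TYRP1 rose beyond 1.5-fold while TYR, at 2.15, 2.01 and 2.12 CPM in CC and 3.48, 3.74 and 2.499 CPM in PC, rose by less (log2 fold change 0.63 ± 0.20 SE, adjusted p = 0.0139), and its adjusted p was 0.0613 without PC replicate 2. Capitals mark the M-box.
TYRP1: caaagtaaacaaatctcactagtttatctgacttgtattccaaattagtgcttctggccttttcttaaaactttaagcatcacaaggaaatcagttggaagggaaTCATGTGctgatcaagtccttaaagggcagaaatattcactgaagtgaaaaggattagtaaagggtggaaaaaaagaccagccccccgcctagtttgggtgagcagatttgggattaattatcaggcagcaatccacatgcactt
TYR: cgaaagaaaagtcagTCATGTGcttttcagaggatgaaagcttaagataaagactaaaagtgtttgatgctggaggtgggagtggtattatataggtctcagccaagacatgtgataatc
Both promoters held 1 match, and a match of letters is a description, not evidence of binding.

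Transcripts that follow ERK activity were still low 2 days after the drugs. Of 16 tested, 10 were lower and 1 higher in PC beyond 1.5-fold, with a median log2 fold change of -2.88. SPRY1, a feedback inhibitor of receptor signalling (hg38 chr4:123396795-123403760, plus strand), is not one of these 16 and was named for its large fall over all genes. It was at 39.2, 46.0 and 67.9 CPM in CC and at 0.105, 0.0652 and 0.0925 CPM in PC, where the 3 libraries held 4, 3 and 4 counts. The ratio of summed counts was 599-fold lower in PC, with an exact 95% interval for counting error of 335 to 1201. ETV5, an ETS transcription factor, fell from 259, 234 and 305 CPM to 5.68, 5.33 and 6.09 CPM (log2 fold change -5.55 ± 0.11 SE, adjusted p = 8.75e-12). DUSP4, a phosphatase that acts on ERK, fell from 343, 294 and 626 CPM to 27.8, 24.4 and 21.4 CPM (log2 fold change -4.10 ± 0.27 SE, adjusted p = 5.30e-08), and MYC from 55.7, 51.6 and 70.0 CPM to 6.54, 6.41 and 5.99 CPM (log2 fold change -3.23 ± 0.14 SE, adjusted p = 2.07e-09). Each PC library was below each CC library for all 4 genes.

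The ERK-dependent genes were not in step with each other. EGR1, an early transcription factor, was at 16.9, 19.7 and 182 CPM in CC and at 0.785, 1.28 and 1.57 CPM in PC (log2 fold change -5.89 ± 0.92 SE, adjusted p = 1.02e-04). CC replicate 3 was far above the other CC libraries for EGR1, and without it the log2 fold change was -3.89. FOSL1, a subunit of AP-1, was at 43.4, 38.0 and 88.6 CPM and at 66.0, 63.5 and 69.2 CPM, and did not pass the test (log2 fold change 0.22 ± 0.24 SE, adjusted p = 0.421). Without CC replicate 3 FOSL1 was higher in PC by a log2 fold change of 0.71 (adjusted p = 2.88e-05). TNFRSF12A, the receptor of the cytokine TWEAK, was the 1 gene that rose beyond 1.5-fold, from 44.3, 47.0 and 87.2 CPM to 732, 803 and 839 CPM (log2 fold change 3.73 ± 0.25 SE, adjusted p = 5.77e-08). Against TC, 1 of the 16 genes was higher and 4 were lower, 1 of them beyond 1.5-fold. ETV5 was among the 4 lower than in TC (log2 fold change -0.55 ± 0.11 SE, adjusted p = 0.00251), whereas MYC was higher (log2 fold change 0.49 ± 0.14 SE, adjusted p = 0.0270). SPRY1, outside the list, was also lower than in TC (log2 fold change -2.69 ± 0.40 SE, adjusted p = 4.56e-04). In RC, ETV5 was at 249, 271 and 277 CPM, within the range of CC, and MYC at 41.9, 41.8 and 41.9 CPM, below each CC library.

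Receptor kinases, their ligands and adaptors moved in both directions, with 4 of 17 higher and 7 lower beyond 1.5-fold and a median of 0.01. AXL (hg38 chr19:41219223-41261766, plus strand) was at 7.26, 6.28 and 7.35 CPM in CC and at 94.1, 108 and 134 CPM in PC (log2 fold change 4.01 ± 0.21 SE, adjusted p = 8.73e-09). In TC it was at 29.1, 35.3 and 49.3 CPM, so that each PC library was also above each TC library (log2 fold change 1.56 ± 0.19 SE, adjusted p = 1.13e-04). IRS1, the adaptor of the insulin receptor, rose from 23.9, 21.9 and 15.5 CPM to 133, 119 and 116 CPM (log2 fold change 2.59 ± 0.13 SE, adjusted p = 6.40e-09) and was higher than in TC as well (log2 fold change 0.74 ± 0.12 SE, adjusted p = 0.00106). ERBB3, a receptor of neuregulins, rose by less than 1.5-fold, from 548, 346 and 515 CPM to 629, 654 and 681 CPM (log2 fold change 0.48 ± 0.13 SE, adjusted p = 0.00681). EGFR fell from 5.97, 5.11 and 5.65 CPM to 1.05, 0.891 and 1.16 CPM (log2 fold change -2.43 ± 0.17 SE, adjusted p = 1.06e-07). PDGFRB, at 13.9, 8.72 and 7.28 CPM in CC and 11.6, 10.7 and 12.5 CPM in PC, did not pass the test (adjusted p = 0.372), and was higher by a log2 fold change of 0.53 without CC replicate 1 (adjusted p = 0.0144).

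HGF, the ligand of the MET receptor, and KDR, a receptor of vascular endothelial growth factor, were close to absent from PC. HGF had 15.2, 16.6 and 13.3 CPM in CC, and the PC libraries held 2, 1 and 0 counts. The ratio of summed counts was 636-fold lower in PC, with an exact 95% counting interval of 217 to 3088. KDR had 6.89, 6.15 and 6.25 CPM in CC and 0, 1 and 2 counts in the PC libraries, a ratio of 272-fold with an interval of 92.9 to 1323. In RC the levels were 2.69 to 2.81 CPM for HGF and 1.74 to 2.88 CPM for KDR, above every PC library and below every CC library.

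**Figure D2:**
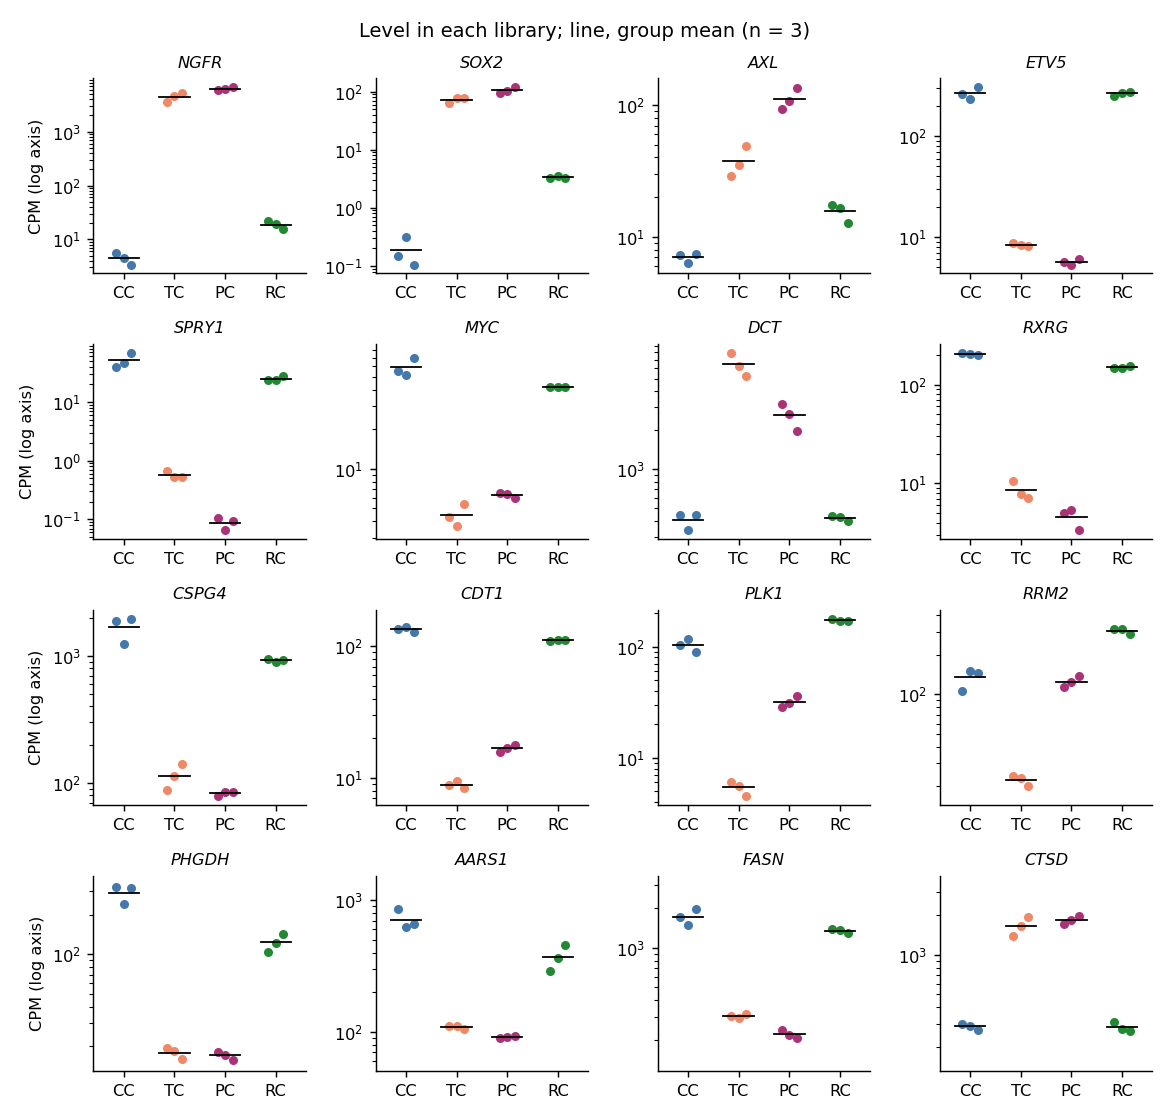
The level of 16 genes in each library, as CPM on a log axis, for CC, TC, PC and RC with 3 libraries each; the line is the group mean. NGFR, SOX2 and AXL are highest in PC, PLK1 and RRM2 are higher in PC than in TC, and PHGDH, AARS1 and FASN are low in both PC and TC.

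PC transcribed the mitotic genes at a level between CC and TC. All 22 genes of the list of mitotic kinases, kinetochore and spindle proteins were lower than in CC beyond 1.5-fold, with a median log2 fold change of -1.76. All 22 were also higher than in TC beyond 1.5-fold, with a median of 2.01 against 0.00 over all genes. PLK1, the kinase that drives entry into mitosis (hg38 chr16:23677656-23690367, plus strand), was at 103, 118 and 90.1 CPM in CC, 28.4, 31.0 and 35.6 CPM in PC and 6.12, 5.62 and 4.52 CPM in TC. The 3 groups did not overlap, and PLK1 differed from CC (log2 fold change -1.71 ± 0.12 SE, adjusted p = 8.16e-08) and from TC (log2 fold change 2.56 ± 0.13 SE, adjusted p = 2.33e-07). MKI67, the proliferation antigen Ki-67, was at 196, 178 and 189 CPM in CC, 48.1, 50.04 and 56.4 CPM in PC and 13.2, 11.5 and 10.3 CPM in TC. It lay between the groups in the same way, with log2 fold changes of -1.87 ± 0.09 SE against CC and 2.15 ± 0.09 SE against TC. AURKB, a kinase of the chromosomal passenger complex, was at 79.9, 107 and 69.8 CPM, 16.1, 15.7 and 18.6 CPM and 4.20, 3.73 and 3.04 CPM in CC, PC and TC. BIRC5, the survivin gene and a partner of AURKB, and DEPDC1, a gene of mitosis, rose over TC with log2 fold changes of 2.65 ± 0.16 and 2.59 ± 0.14 SE. Among genes with a mean count of at least 1000, both were among the 4 with the largest rise over TC. BIRC5 was at 56.8, 61.8 and 68.0 CPM in PC and at 11.8, 10.0 and 8.04 CPM in TC. In the RC libraries the median of the mitotic list relative to the CC mean was between 0.74 and 0.78 on the log2 scale.

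In resting cells many mitotic genes are held down through the cell cycle genes homology region (CHR), read by the MuvB complex and searched for here as TTTGAA on both strands. It occurred in the 250 bases before the start of 7 of 18 mitotic genes with a promoter in the table (38.9%), among them PLK1, TOP2A and MKI67, in 4 of 14 pigment promoters (28.6%), in 3 of 15 promoters of the cyclin list (20%), and in 1010 of 11587 promoters of tested genes (8.72%). The 120 bases before the starts of PLK1 (chr16:23678769-23678888, plus strand) and MKI67 (chr10:128126424-128126543, minus strand) are shown with the matches in capitals.
PLK1: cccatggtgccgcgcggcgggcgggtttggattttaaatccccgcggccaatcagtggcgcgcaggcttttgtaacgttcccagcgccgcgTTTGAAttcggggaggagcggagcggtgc
MKI67: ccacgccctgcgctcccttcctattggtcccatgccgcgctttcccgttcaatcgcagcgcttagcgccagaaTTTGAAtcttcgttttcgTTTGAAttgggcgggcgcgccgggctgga
The match closest to the start began 29 bases before it in both genes, and MKI67 held 2 matches.

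Cyclins, their kinases and E2F factors followed the same course, with 12 of 20 lower than in CC and 1 higher beyond 1.5-fold (median -1.09), and with 13 of 20 higher than in TC and 0 lower (11 and 0 beyond 1.5-fold). CCNB1, the mitotic cyclin B1, was at 159, 238 and 170.2 CPM in CC, 49.2, 57.5 and 61.1 CPM in PC and 14.9, 14.0 and 11.9 CPM in TC. E2F1, an activator of S phase genes, was at 31.1, 39.9 and 44.3 CPM, 18.2, 19.3 and 21.7 CPM and 6.53, 6.31 and 6.70 CPM in the same order. For both genes PC lay between the other groups without overlap. CCNE2, a cyclin of the start of S phase, was the 1 member higher than in CC beyond 1.5-fold, at 1.51, 1.97 and 1.69 CPM in CC and 3.27, 3.83 and 3.17 CPM in PC (log2 fold change 0.99 ± 0.16 SE, adjusted p = 1.37e-04). FOXM1, which activates the mitotic genes, was at 62.8, 68.0 and 60.3 CPM in CC, 43.5, 48.5 and 50.6 CPM in PC and 9.15, 7.75 and 7.28 CPM in TC. Its difference from CC was less than 1.5-fold (log2 fold change -0.42 ± 0.08 SE, adjusted p = 7.51e-04), while it rose over TC by 2.56 ± 0.09 SE on the log2 scale.

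Brakes of the cycle changed beyond 1.5-fold no more often than all genes tested. Of 19 tested, 2 were higher and 3 lower than in CC beyond 1.5-fold (median -0.23), against 17.2% and 19.9% over all genes. CDKN2C, an inhibitor of CDK4 and CDK6, rose from 20.6, 32.0 and 16.1 CPM to 88.0, 87.5 and 96.4 CPM (log2 fold change 1.99 ± 0.18 SE, adjusted p = 1.13e-06), and BTG1, an antiproliferative factor, from 179, 171 and 189 CPM to 503, 496 and 518 CPM (log2 fold change 1.49 ± 0.08 SE, adjusted p = 7.68e-09). All PC libraries were above all CC libraries for both, and both were also higher than in TC, with log2 fold changes of 1.28 ± 0.18 and 0.41 ± 0.08 SE. CDKN1A, the p21 gene, was at 86.5, 91.7 and 105.5 CPM in CC and 85.4, 89.9 and 87.9 CPM in PC and did not pass the test (adjusted p = 0.188), and its adjusted p was 0.0406 without CC replicate 1. CDKN1B, the p27 gene, was at 47.0, 47.5 and 39.5 CPM and 38.0, 38.1 and 37.9 CPM (log2 fold change -0.23 ± 0.08 SE, adjusted p = 0.0261), a call that was lost on leaving out any PC library or CC replicate 1 or 2, with adjusted p between 0.062 and 0.0788.

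Replication genes were low in PC. Of 29 genes of origin licensing and the fork, 26 were lower than in CC beyond 1.5-fold and 0 higher (median -1.57), while 20 were higher than in TC, 7 of them beyond 1.5-fold (median 0.45). CDT1, which loads the MCM helicase, was at 135, 139 and 128 CPM in CC, 15.7, 16.8 and 17.8 CPM in PC and 8.76, 9.48 and 8.40 CPM in TC. It fell against CC (log2 fold change -3.001 ± 0.07 SE, adjusted p = 1.94e-11) and was above TC (log2 fold change 0.92 ± 0.07 SE, adjusted p = 3.42e-06). MCM2, a helicase subunit, fell from 163, 165 and 218 CPM to 45.3, 46.7 and 44.8 CPM (log2 fold change -1.998 ± 0.10 SE, adjusted p = 6.28e-09). POLE, the catalytic subunit of DNA polymerase epsilon, was at 62.5, 56.2 and 77.5 CPM in CC, 8.79, 8.89 and 9.49 CPM in PC and 8.30, 7.77 and 9.07 CPM in TC. It fell against CC (log2 fold change -2.85 ± 0.11 SE, adjusted p = 7.44e-10) and did not pass the test against TC (log2 fold change 0.11 ± 0.11 SE, adjusted p = 0.515). PCNA, the sliding clamp, was at 48.9, 75.2 and 62.5 CPM in CC and 29.5, 30.7 and 30.01 CPM in PC, with all PC libraries below the lowest CC library (log2 fold change -1.05 ± 0.12 SE, adjusted p = 5.61e-06).

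E2F factors bind TTTGGCGC and TTTCGCGC, of which at least 1 occurred on either strand in 4 of 26 replication promoters (15.4%) and in 189 of 11587 promoters of tested genes (1.63%). The 120 bases before the start are shown for E2F1 (chr20:33686386-33686505, minus strand), which rose over TC, and for POLE (chr12:132687343-132687462, minus strand), which did not pass that test. Capitals mark the match.
E2F1: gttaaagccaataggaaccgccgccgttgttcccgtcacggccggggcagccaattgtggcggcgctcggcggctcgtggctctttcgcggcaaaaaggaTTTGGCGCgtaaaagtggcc
POLE: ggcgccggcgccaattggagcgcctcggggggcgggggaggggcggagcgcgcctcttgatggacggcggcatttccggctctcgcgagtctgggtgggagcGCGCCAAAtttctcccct
Both stretches held a match within 20 bases of the start.

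Homologous recombination and Fanconi genes were lower than in CC at 19 of 24 and higher at 0 beyond 1.5-fold (median -1.34), and 20 of 24 were higher than in TC, 9 beyond 1.5-fold (median 0.77). BRCA2 was at 23.6, 20.5 and 26.7 CPM in CC, 5.73, 6.13 and 6.11 CPM in PC and 2.41, 2.99 and 2.41 CPM in TC, and FANCI, of the complex that marks crosslinks, at 117, 120.1 and 118 CPM, 24.6, 27.5 and 27.3 CPM and 16.5, 16.4 and 14.4 CPM. In both, PC lay between the other groups without overlap. RAD18, a ubiquitin ligase of damage tolerance, was at 34.9, 37.2 and 37.5 CPM in CC and at 12.7, 14.8 and 15.6 CPM in PC, and its PC and TC libraries overlapped (log2 fold change 0.04 ± 0.09 SE, adjusted p = 0.759).

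Among genes of nucleotide synthesis, 14 of 25 were lower than in CC and 1 higher beyond 1.5-fold (median -1.05). RRM2, the small subunit of ribonucleotide reductase, was at 107, 150.3 and 146 CPM in CC, 114, 124 and 137 CPM in PC and 24.0, 23.2 and 20.1 CPM in TC. The PC and CC libraries overlapped (log2 fold change -0.11 ± 0.12 SE, adjusted p = 0.440), although RRM2 was lower in PC without CC replicate 1 (log2 fold change -0.25, adjusted p = 0.0301). Over TC it rose in each library (log2 fold change 2.48 ± 0.13 SE, adjusted p = 2.51e-07). TYMS, the thymidylate synthase, was at 9.26, 16.0 and 12.6 CPM, 8.58, 8.37 and 8.12 CPM and 1.94, 2.07 and 1.77 CPM in CC, PC and TC, and likewise rose over TC (log2 fold change 2.12 ± 0.17 SE, adjusted p = 5.66e-06). CAD, which starts pyrimidine synthesis, was at 152, 126 and 157 CPM, 54.9, 54.4 and 54.1 CPM and 61.9, 57.3 and 58.0 CPM. It fell against CC (log2 fold change -1.41 ± 0.08 SE, adjusted p = 1.32e-08) and did not pass the test against TC (adjusted p = 0.311). PPAT and PFAS, of purine synthesis, fell by 1.61 and 1.96 on the log2 scale against CC and did not pass the test against TC, with adjusted p of 0.0959 and 0.436. PRPS1, which makes the ribose donor of both, was the 1 gene that rose beyond 1.5-fold, from 57.6, 64.4 and 56.6 CPM to 137, 154 and 169 CPM (log2 fold change 1.37 ± 0.14 SE, adjusted p = 1.99e-06).

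**Figure D3:**
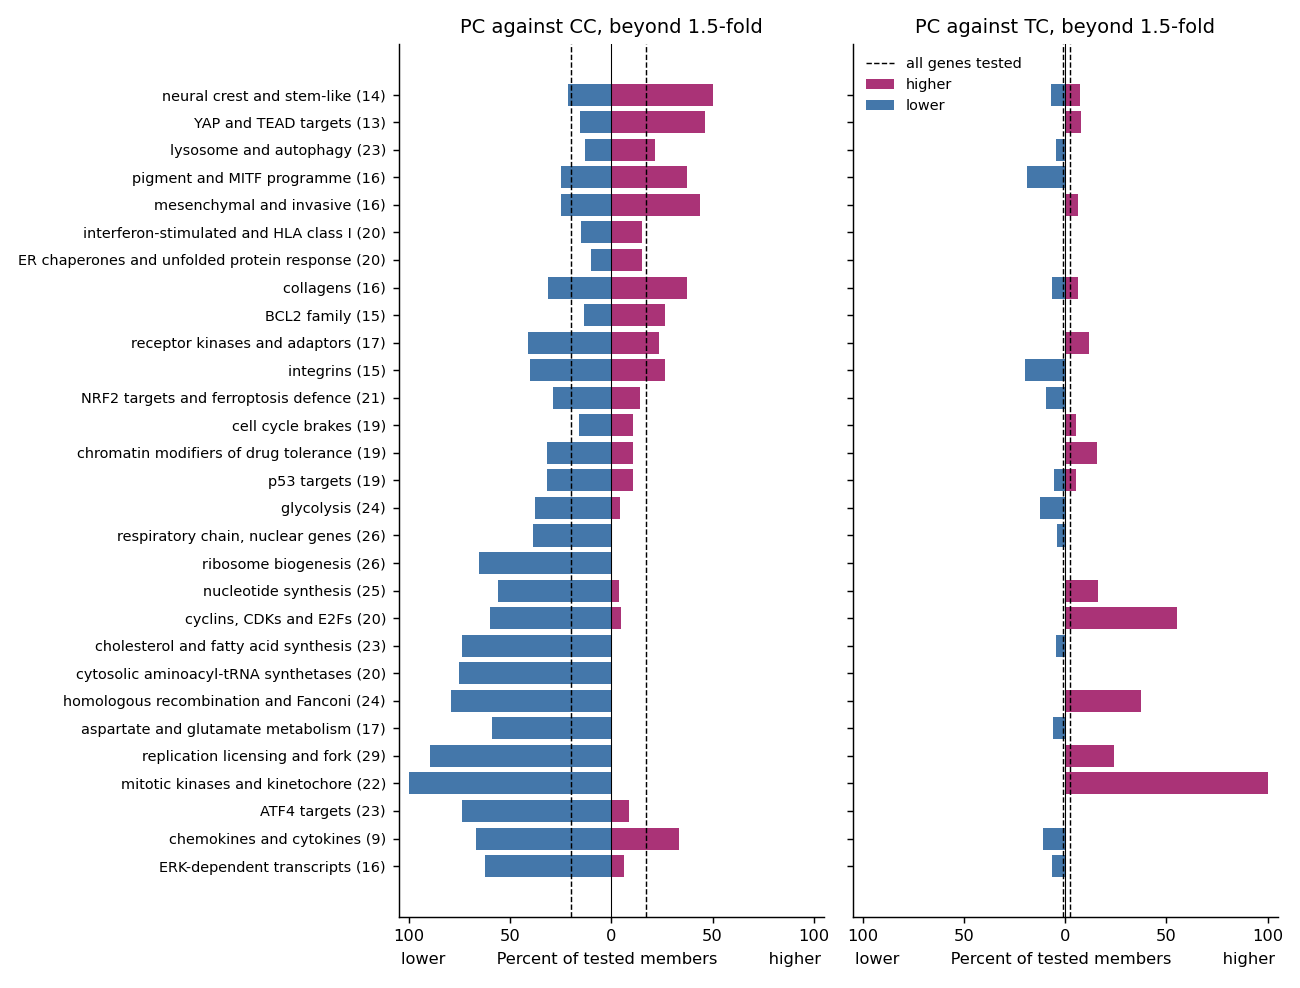
Bars give the percent of tested members of 29 gene lists (number of members in brackets) that were higher or lower beyond 1.5-fold in PC against CC and in PC against TC; dashed lines give the same percent over all 15916 genes. The mitotic list reaches 100% lower against CC and 100% higher against TC. The ATF4, aspartate and glutamate, lipid synthesis, glycolysis and respiratory chain lists have no member above TC beyond 1.5-fold. Other lists have none either, such as the pigment and lysosome lists, and the share over all genes is only 2.33%, so that none is near the background.

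Genes of protein synthesis were lower in PC than in CC. Of 26 ribosome biogenesis genes, 17 were lower than in CC and 0 higher beyond 1.5-fold (median -0.95), and none differed from TC beyond 1.5-fold, where 3 were higher and 1 lower by the quasi-likelihood test. NCL, the nucleolin gene, fell from 1189, 1198 and 1394 CPM to 573, 583 and 597 CPM (log2 fold change -1.11 ± 0.06 SE, adjusted p = 1.80e-08), and POLR1B, a subunit of RNA polymerase I, from 187, 149.5 and 245 CPM to 60.8, 61.8 and 68.3 CPM (log2 fold change -1.61 ± 0.14 SE, adjusted p = 5.12e-07). All PC libraries were below all CC libraries for both. The cytosolic aminoacyl-tRNA synthetases, which charge tRNAs with their amino acids, were lower at 15 of 20 and higher at 0 beyond 1.5-fold (median -1.33). AARS1, the alanyl enzyme (hg38 chr16:70251983-70289707, minus strand), was at 858, 624 and 659.9 CPM in CC and 90.1, 91.2 and 92.9 CPM in PC (log2 fold change -2.97 ± 0.16 SE, adjusted p = 8.94e-09). EPRS1, which charges the tRNAs of glutamate and proline, fell from 477, 397 and 485 CPM to 190.3, 190.2 and 197 CPM (log2 fold change -1.23 ± 0.08 SE, adjusted p = 7.71e-08) and was also lower than in TC (log2 fold change -0.35 ± 0.08 SE, adjusted p = 0.00932). NARS1, the asparaginyl enzyme, fell by 1.42 on the log2 scale. Against TC, 1 of the 20 was higher and 5 were lower.

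Targets of ATF4, the transcription factor of the amino acid stress response, were mostly lower, with 17 of 23 lower and 2 higher beyond 1.5-fold and a median of -2.21. ATF4 was at 615, 533 and 769 CPM in CC and 222, 216 and 208 CPM in PC (log2 fold change -1.57 ± 0.13 SE, adjusted p = 3.37e-07). PHGDH, the first enzyme of serine synthesis (hg38 chr1:119648411-119744218, plus strand), was at 322, 239 and 316 CPM and 18.2, 17.3 and 15.9 CPM (log2 fold change -4.10 ± 0.15 SE, adjusted p = 4.97e-10). CHAC1, which breaks down glutathione, was at 30.3, 14.6 and 73.5 CPM and 0.942, 1.09 and 0.764 CPM (log2 fold change -5.40 ± 0.59 SE, adjusted p = 4.78e-06), and at a log2 fold change of -4.57 without CC replicate 3. SLC7A11, the cystine carrier, fell from 272, 147 and 321 CPM to 47.7, 55.3 and 57.2 CPM (log2 fold change -2.21 ± 0.39 SE, adjusted p = 2.95e-04). The groups did not overlap in any of these, although CC replicate 2 was the lowest CC library in each. ATF3 and ATF5, transcription factors of the same response, rose, ATF3 from 27.1, 20.7 and 45.0 CPM to 276, 287 and 293 CPM (log2 fold change 3.20 ± 0.22 SE, adjusted p = 7.81e-08) and ATF5 from 9.95, 6.24 and 12 CPM to 25.3, 26.9 and 28.2 CPM (log2 fold change 1.51 ± 0.18 SE, adjusted p = 1.02e-05). ASNS, the asparagine synthetase, was at only 2.30, 2.03 and 1.31 CPM in CC and 0.0785, 0.0435 and 0.116 CPM in PC, a low level at which its counts are uncertain. Against TC, 2 of the 23 genes were higher and 4 lower, and none beyond 1.5-fold.

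ATF4 binds the element TGATGNAA with its partners, which occurred on either strand in the 250 bases before the start of 3 of 19 ATF4 targets (15.8%), 2 of 16 synthetases (12.5%) and 178 of 11587 promoters of tested genes (1.54%). The promoters of CHAC1 (chr15:40953221-40953470, plus strand) and AARS1 (chr16:70289507-70289756, minus strand) are shown because both genes fell by more than 2.9 on the log2 scale, with the match, which lies on the opposite strand, in capitals.
CHAC1: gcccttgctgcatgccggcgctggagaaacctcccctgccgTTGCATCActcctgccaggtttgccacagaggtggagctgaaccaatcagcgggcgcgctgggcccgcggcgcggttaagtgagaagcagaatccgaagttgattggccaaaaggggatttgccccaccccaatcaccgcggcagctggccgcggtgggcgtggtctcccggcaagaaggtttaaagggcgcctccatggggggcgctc
AARS1: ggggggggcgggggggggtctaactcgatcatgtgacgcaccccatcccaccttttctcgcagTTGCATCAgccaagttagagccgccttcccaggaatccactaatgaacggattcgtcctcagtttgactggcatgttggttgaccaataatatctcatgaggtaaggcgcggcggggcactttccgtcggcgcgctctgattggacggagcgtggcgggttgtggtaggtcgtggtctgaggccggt
The matches began 209 and 187 bases before the start. Genes with the element did not move together. The 3 ATF4 targets with it were ASNS and CHAC1, which fell, and ATF3, which rose against CC (log2 fold change 3.20 ± 0.22 SE).

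Metabolism of aspartate and glutamate was lower at 10 of 17 genes and higher at 0 beyond 1.5-fold (median -1.35), and 8 of 17 were below TC as well, 1 of them beyond 1.5-fold. SLC38A1, a glutamine carrier, was at 409.7, 271 and 534 CPM in CC, 6.83, 5.74 and 6.15 CPM in PC and 18.4, 16.8 and 16.2 CPM in TC. Its PC libraries were below those of both other groups, with log2 fold changes of -6.02 ± 0.24 SE against CC and -1.46 ± 0.22 SE against TC. GOT1, the cytosolic enzyme that interconverts aspartate and glutamate, was at 104, 99.6 and 73.8 CPM, 19.7, 17.7 and 17.1 CPM and 36.6, 29.1 and 30.7 CPM in CC, PC and TC. It was lower in PC than in either, with log2 fold changes of -2.35 ± 0.13 and -0.82 ± 0.13 SE. PYCR1, of proline synthesis, fell from 221, 151 and 213 CPM to 74.6, 74.8 and 75.9 CPM (log2 fold change -1.38 ± 0.13 SE, adjusted p = 9.48e-07). GLUL, the glutamine synthetase, fell by less than 1.5-fold (log2 fold change -0.51 ± 0.10 SE, adjusted p = 5.59e-04).

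Amino acid frequencies were computed for the proteins encoded by the genes that fell and rose. Coding sequences were found for 2666 genes lower and 2181 genes higher beyond 1.5-fold, which is over 99% of the protein-coding ones in each set. Glutamate made up 7.18% ± 2.61 (SD over proteins) of the residues of proteins whose genes were lower and 6.83% ± 2.68 where genes were higher, against 7.31% ± 2.76 for the 7942 genes not called. Aspartate made up 4.87% ± 1.498 and 4.62% ± 1.72, asparagine 3.62% ± 1.42 and 3.40% ± 1.52, and lysine 6.15% ± 2.67 and 5.54% ± 2.85 in the same order. Among the 20 amino acids, lysine had the largest difference between the sets, at 0.62 percentage points, followed by proline, which was lower in the proteins of genes that fell by 0.41 points. The mean of the genes not called was 4.86% for aspartate, 6.12% for lysine and 3.51% for asparagine. For glutamate, aspartate and lysine it was nearer to the genes that fell, and for asparagine about midway between the sets. Among the codons of glutamate, GAA made up 43.8% ± 21.7 (SD over genes) in genes that fell and 36.4% ± 22.5 in genes that rose, with 42.7% ± 22.2 in genes not called. The frequencies are given as a description, since genes are not replicates.

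**Figure D4:**
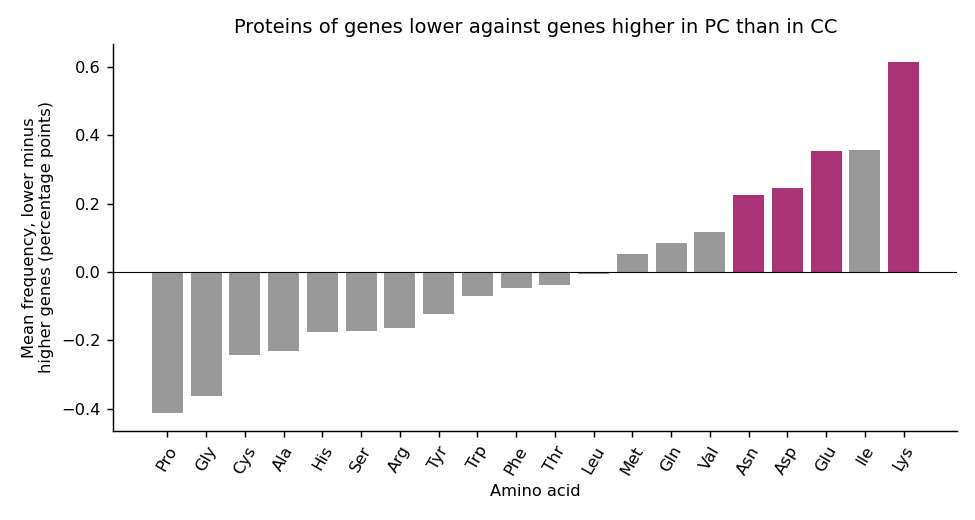
Bars give, for each of the 20 amino acids, the mean frequency in proteins of the 2666 genes lower in PC minus that in proteins of the 2181 genes higher in PC, in percentage points; Glu, Asp, Lys and Asn are coloured. Lys is the most positive bar at 0.62 and Pro the most negative at -0.41.

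Among genes of energy metabolism, more were lower than higher in PC. Of 24 glycolysis genes, 9 were lower and 1 higher than in CC beyond 1.5-fold (median -0.59), and against TC 14 were lower and 0 higher (median -0.38), 3 of them beyond 1.5-fold. PDK4, which turns off pyruvate dehydrogenase, was at 204, 245 and 275 CPM in CC, 2.67, 2.72 and 1.43 CPM in PC and 8.87, 5.68 and 5.65 CPM in TC. SLC2A3, the glucose carrier GLUT3, was at 103, 116 and 137 CPM, 16.3, 17.9 and 17.1 CPM and 41.2, 39.0 and 37.5 CPM. Both were lowest in PC, with log2 fold changes against TC of -1.56 ± 0.24 and -1.20 ± 0.09 SE. SLC2A1, the carrier GLUT1, was at 102, 93.4 and 110.0 CPM in CC and 102, 120.4 and 128 CPM in PC and did not pass the test (adjusted p = 0.211). HK2, a hexokinase, fell from 268, 211 and 294 CPM to 141, 151 and 163 CPM (log2 fold change -0.76 ± 0.10 SE, adjusted p = 3.13e-05). SLC16A3, a lactate carrier, rose from 2.07, 1.49 and 1.35 CPM to 5.84, 6.26 and 6.48 CPM (log2 fold change 1.92 ± 0.23 SE, adjusted p = 9.27e-06).

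Of 26 nuclear genes of the respiratory chain, 10 were lower and 0 higher than in CC beyond 1.5-fold (median -0.70), and against TC 18 were lower and 0 higher (median -0.46), 1 of them beyond 1.5-fold. SDHA, the catalytic subunit of complex II, was at 258, 281 and 201 CPM in CC, 63.5, 69.4 and 61.5 CPM in PC and 167, 134 and 135 CPM in TC. UQCRC1, of complex III, was at 418, 472 and 329 CPM, 148, 148 and 139 CPM and 288, 247 and 243 CPM. In both genes PC lay below CC and TC without overlap, and the log2 fold changes against TC were -1.16 ± 0.12 and -0.84 ± 0.11 SE. CYCS, cytochrome c, was at 253, 342 and 290.4 CPM and 263, 268 and 265 CPM and did not pass the test (adjusted p = 0.190), although its adjusted p was 0.0242 without CC replicate 1.

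Cholesterol and fatty acid synthesis was lower at 17 of 23 genes and higher at 0 beyond 1.5-fold (median -1.13). FASN, the fatty acid synthase (hg38 chr17:82078338-82098294, minus strand), was at 1725, 1479 and 1965 CPM in CC and 239, 218 and 207 CPM in PC (log2 fold change -2.96 ± 0.10 SE, adjusted p = 2.34e-10). SCD, a desaturase, fell from 879, 828 and 899 CPM to 247, 255 and 250.2 CPM (log2 fold change -1.79 ± 0.08 SE, adjusted p = 2.52e-09). All PC libraries were below all CC libraries for both genes. HMGCS1, of the mevalonate pathway, fell by less than 1.5-fold (log2 fold change -0.35 ± 0.10 SE, adjusted p = 0.00754), and its adjusted p was 0.0518 with only the 2 groups compared in the fit. Against TC, 2 of the 23 genes were higher and 5 lower, and FASN was among the lower ones (log2 fold change -0.45 ± 0.09 SE, adjusted p = 0.00364).

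Lysosomal and chaperone genes had medians above 0. Of 23 lysosome and autophagy genes, 5 were higher and 3 lower than in CC beyond 1.5-fold, against 17.2% and 19.9% over all genes. By the quasi-likelihood test 13 were higher and 7 lower (median 0.45), against 33.2% and 35.9% over all genes. One of the 3 lower genes, SQSTM1, an autophagy receptor, rested on CC replicate 2, at 8.15, 128 and 14.3 CPM in CC and 7.93, 8.89 and 10.5 CPM in PC, and its log2 fold change was -0.31 without it (adjusted p = 0.242). CTSD, the protease cathepsin D (hg38 chr11:1752752-1764573, minus strand), was at 300.4, 288 and 269 CPM in CC and 1727, 1830.5 and 1966 CPM in PC (log2 fold change 2.69 ± 0.11 SE, adjusted p = 1.41e-09). GABARAPL1, an autophagosome protein, rose from 64.3, 66.7 and 55.9 CPM to 145, 158 and 160.4 CPM (log2 fold change 1.31 ± 0.08 SE, adjusted p = 3.23e-08). LAMP1, a lysosomal membrane protein, rose by less than 1.5-fold (log2 fold change 0.52 ± 0.09 SE, adjusted p = 1.98e-04), while CTSB, cathepsin B, fell by less than 1.5-fold (log2 fold change -0.29 ± 0.07 SE, adjusted p = 0.00255) and NPC1, the lysosomal cholesterol carrier, fell from 115, 91.8 and 104 CPM to 38.1, 39.8 and 37.9 CPM (log2 fold change -1.42 ± 0.10 SE, adjusted p = 6.54e-08). Against TC, 0 of the 23 were higher and 10 lower. CD68, a lysosomal membrane protein also used as a macrophage marker, was at 173, 161 and 127 CPM in CC and 633, 679.7 and 774 CPM in PC (log2 fold change 2.18, adjusted p = 7.26e-08), while the other 5 immune markers were at most at 1.26 CPM in each of these libraries.

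Of 20 genes of the endoplasmic reticulum, 3 were higher and 2 lower beyond 1.5-fold (median 0.28), against 17.2% and 19.9% over all genes. CALR, the chaperone calreticulin, rose from 707, 917 and 805 CPM to 1803, 1966 and 2152 CPM (log2 fold change 1.29 ± 0.11 SE, adjusted p = 4.30e-07), and HSPA5, the chaperone BiP, by less than 1.5-fold (log2 fold change 0.50 ± 0.09 SE, adjusted p = 2.17e-04). XBP1 fell from 167, 130 and 218 CPM to 80.3, 81.3 and 90.2 CPM (log2 fold change -1.03 ± 0.15 SE, adjusted p = 6.20e-05) and ERN1, the sensor that splices its RNA, from 49.0, 23.2 and 41.9 CPM to 13.4, 13.9 and 13.3 CPM (log2 fold change -1.49 ± 0.21 SE, adjusted p = 3.72e-05). Among 21 NRF2 targets and genes of defence against lipid peroxides, 3 were higher and 6 lower than in CC beyond 1.5-fold, and 0 were higher and 13 lower than in TC. HMOX1, haem oxygenase, was at 13.4, 12.9 and 12.9 CPM in CC, 42.3, 32.9 and 29.6 CPM in PC and 137, 103 and 64.9 CPM in TC. It was above CC (log2 fold change 1.42 ± 0.22 SE, adjusted p = 9.53e-05) and below TC (log2 fold change -1.54 ± 0.21 SE, adjusted p = 3.15e-04). FTL, the ferritin light chain, rose from 1517, 1749 and 1232 CPM to 2939, 3011 and 2966 CPM (log2 fold change 0.99 ± 0.10 SE, adjusted p = 1.85e-06), and GPX4, which reduces lipid peroxides, by less than 1.5-fold (log2 fold change 0.27 ± 0.08 SE, adjusted p = 0.00843).

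Mesenchymal and matrix genes formed no single pattern. Of 16 mesenchymal and invasive genes, 7 were higher and 4 lower than in CC beyond 1.5-fold (median 0.41). TGFBI, a secreted protein induced by TGF-beta, was at 10.7, 10.1 and 8.72 CPM in CC and 295, 398 and 449 CPM in PC (log2 fold change 5.27 ± 0.34 SE, adjusted p = 4.28e-08). THBS1, thrombospondin, was at 151, 163 and 169 CPM and 1849, 2219 and 2149.5 CPM (log2 fold change 3.69 ± 0.12 SE, adjusted p = 2.45e-10), and above TC (log2 fold change 0.89 ± 0.11 SE, adjusted p = 1.44e-04). ZEB1, a mesenchymal transcription factor, fell from 43.99, 38.0 and 42.3 CPM to 11.8, 10.7 and 14.0 CPM (log2 fold change -1.77 ± 0.11 SE, adjusted p = 4.60e-08), and TNC, tenascin C, from 1873, 1658 and 1563 CPM to 513, 597 and 656 CPM (log2 fold change -1.53 ± 0.19 SE, adjusted p = 1.21e-05). For TGFBI, THBS1, ZEB1 and TNC the PC and CC libraries did not overlap, whereas for some other members of the list they did.

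Collagens moved in both directions, with 6 of 16 higher and 5 lower beyond 1.5-fold. The fibrillar chain COL5A2 rose from 88.5, 80.4 and 75.7 CPM to 828, 897 and 945 CPM (log2 fold change 3.45 ± 0.17 SE, adjusted p = 5.16e-09), whereas COL4A1 and COL4A2 of basement membranes fell, COL4A2 from 819, 720.4 and 763 CPM to 111, 109.9 and 99.9 CPM (log2 fold change -2.84 ± 0.07 SE, adjusted p = 4.08e-11). COL4A1 was at 342, 332 and 312 CPM in CC, 64.9, 66.5 and 60.8 CPM in PC and 37.2, 40.9 and 37.8 CPM in TC, and lay above TC in each library (log2 fold change 0.73 ± 0.07 SE, adjusted p = 1.66e-05). Of 15 integrins, 4 were higher and 6 lower beyond 1.5-fold. ITGA6, a laminin receptor subunit, rose from 378, 429 and 430.1 CPM to 2591, 2711 and 2912 CPM (log2 fold change 2.73 ± 0.10 SE, adjusted p = 6.14e-10) and ITGA2, a collagen receptor subunit, from 38.4, 25.3 and 40.01 CPM to 196, 221 and 234 CPM (log2 fold change 2.65 ± 0.17 SE, adjusted p = 5.06e-08). ITGB3, the beta 3 subunit, fell from 980.0, 920.5 and 976 CPM to 97.9, 92.9 and 93.3 CPM (log2 fold change -3.34 ± 0.09 SE, adjusted p = 5.47e-11). ITGA10 fell from 55.0, 37.2 and 43.5 CPM to 0.340, 0.217 and 0.324 CPM (log2 fold change -7.27 ± 0.25 SE, adjusted p = 2.87e-10).

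YAP and TEAD targets were higher at 6 of 13 and lower at 2 beyond 1.5-fold (median 0.46), a list that holds AXL as well. CCN1 rose from 14.9, 17.6 and 25.9 CPM to 101, 104.8 and 109 CPM (log2 fold change 2.43 ± 0.26 SE, adjusted p = 3.75e-06). CCN2 was at 43.4, 50.7 and 59.8 CPM and 70.7, 73.0 and 67.7 CPM, with PC above CC in all libraries, and missed the threshold (log2 fold change 0.46 ± 0.20 SE, adjusted p = 0.0559). It passed in 7 of 12 alternative settings, with adjusted p between 0.00885 and 0.186. NT5E, the ecto-5'-nucleotidase CD73, fell from 63.5, 60.8 and 65.6 CPM to 4.61, 4.59 and 5.32 CPM (log2 fold change -3.71 ± 0.09 SE, adjusted p = 2.53e-11).

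Secreted signals changed at all 9 of the chemokines and cytokines that could be tested, 3 higher and 6 lower beyond 1.5-fold. IL11 was at 0.198, 0.158 and 0.466 CPM in CC and 42.9, 55.2 and 63.0 CPM in PC (log2 fold change 7.57 ± 0.48 SE, adjusted p = 4.16e-08), and at 8.23 on the log2 scale without CC replicate 3. IL24 fell from 582, 517 and 399 CPM to 19.7, 17.9 and 13.5 CPM (log2 fold change -4.87 ± 0.20 SE, adjusted p = 1.16e-09). LIF fell from 44.4, 40.1 and 113 CPM to 4.95, 5.13 and 5.85 CPM (log2 fold change -3.63 ± 0.34 SE, adjusted p = 1.24e-06), or by 2.98 on the log2 scale without CC replicate 3, which was the highest CC library. IL6 and IL1B were too low to be tested. Interferon-stimulated and HLA class I genes were near the background, with 3 of 20 higher and 3 lower beyond 1.5-fold. B2M, the light chain of HLA class I, rose from 82.6, 93.7 and 71.1 CPM to 152, 172 and 162 CPM (log2 fold change 0.97 ± 0.09 SE, adjusted p = 9.46e-07) and ISG15 from 11.9, 18.1 and 9.27 CPM to 32.2, 35.3 and 36.5 CPM (log2 fold change 1.41 ± 0.19 SE, adjusted p = 2.49e-05). OAS1 fell from 13.04, 10.6 and 11.1 CPM to 4.16, 4.72 and 4.56 CPM (log2 fold change -1.37 ± 0.14 SE, adjusted p = 2.41e-06).

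Genes of the BCL2 family were near the background as a list. Of 15 tested, 4 were higher and 2 lower beyond 1.5-fold (median 0.19), against 17.2% and 19.9% over all genes. The BH3-only genes BMF and BCL2L11, which promote death, rose, BMF from 69.2, 62.1 and 52.2 CPM to 236, 229 and 228 CPM (log2 fold change 1.92 ± 0.14 SE, adjusted p = 1.35e-07) and BCL2L11 from 20.1, 19.4 and 18.0 CPM to 42.2, 40.3 and 41.6 CPM (log2 fold change 1.11 ± 0.07 SE, adjusted p = 2.69e-08). PMAIP1, another BH3-only gene, fell from 36.0, 26.4 and 55.7 CPM to 0.890, 0.435 and 0.370 CPM (log2 fold change -6.14 ± 0.39 SE, adjusted p = 3.61e-08). BCL2, which protects from death, was at 21.0, 19.96 and 30.3 CPM in CC, 5.52, 4.33 and 3.05 CPM in PC and 13.4, 8.26 and 8.27 CPM in TC, and was lower in PC than in either, with log2 fold changes of -2.47 ± 0.25 SE against CC and -1.22 ± 0.24 SE against TC. MCL1, at 215, 191 and 391 CPM in CC and 232, 233 and 241 CPM in PC, did not pass the test (log2 fold change -0.18 ± 0.20 SE, adjusted p = 0.444). Without CC replicate 3, its highest library, MCL1 was higher in PC by 0.22 on the log2 scale (adjusted p = 0.00528).

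Of 19 p53 targets, 2 were higher and 6 lower beyond 1.5-fold (median -0.35). TP53I3, an oxidoreductase, rose from 4.42, 4.68 and 3.92 CPM to 47.2, 46.6 and 50.05 CPM (log2 fold change 3.47 ± 0.09 SE, adjusted p = 4.49e-11), and was above TC as well (log2 fold change 1.06 ± 0.08 SE, adjusted p = 4.57e-06). GDF15, a secreted stress cytokine, fell from 1050.1, 786 and 1585 CPM to 6.91, 3.67 and 3.03 CPM (log2 fold change -7.99 ± 0.37 SE, adjusted p = 3.00e-09), and lay below TC, at 25.5, 17.1 and 19.2 CPM (log2 fold change -2.20 ± 0.32 SE, adjusted p = 3.86e-04). MDM2, the ligase of p53, was at 59.97, 75.9 and 89.0 CPM and 74.3, 74.9 and 73.3 CPM and did not pass the test (adjusted p = 0.906).

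Chromatin modifiers linked to drug tolerance were lower at 6 of 19 and higher at 2 beyond 1.5-fold (median -0.33). HDAC9, a histone deacetylase, rose from 10.9, 11.4 and 15.1 CPM to 72.7, 76.8 and 75.9 CPM (log2 fold change 2.59 ± 0.11 SE, adjusted p = 1.15e-09) and HDAC1 from 237, 242 and 239 CPM to 461, 503 and 527 CPM (log2 fold change 1.06 ± 0.06 SE, adjusted p = 2.12e-08). EZH2, the methyltransferase of Polycomb, was at 41.8, 50.7 and 56.4 CPM in CC, 19.97, 22.7 and 24.3 CPM in PC and 11.4, 11.5 and 11.6 CPM in TC. It lay between the other groups, with log2 fold changes of -1.15 ± 0.10 SE against CC and 0.96 ± 0.11 SE against TC. KDM5B, a histone demethylase, fell (log2 fold change -0.68 ± 0.11 SE, adjusted p = 1.04e-04) and did not pass the test against 1.5-fold.

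Some of the largest changes were in genes of no list. Where the mean normalized count over the 6 libraries reached 1000, without overlap between the groups, 1257 genes were higher and 1449 lower beyond 1.5-fold. The total of genes at this level is not given here, so these counts cannot be read as shares. How often PC and CC separated among all tested genes is not given either. A lack of overlap in a named gene therefore cannot be weighed against a background. The 8 genes with the largest rise included NGFR and SOX2. CRISPLD2 was at 0.395, 0.226 and 0.254 CPM in CC and 104, 139 and 152 CPM in PC (log2 fold change 8.82 ± 0.64 SE, adjusted p = 1.25e-07). ANGPTL7, an angiopoietin-like protein, was at 1.70, 1.27 and 1.02 CPM in CC, 463, 486 and 511 CPM in PC and 103, 137 and 183 CPM in TC. Each PC library was above each TC library for ANGPTL7 (log2 fold change 1.79 ± 0.18 SE, adjusted p = 3.30e-05). ADAMTS15, a secreted metalloprotease, was at 0.444, 0.949 and 0.275 CPM in CC and 154, 168 and 167 CPM in PC (log2 fold change 8.20 ± 0.44 SE, adjusted p = 9.98e-09), or 8.83 on the log2 scale without CC replicate 2, and was likewise above TC (log2 fold change 1.85 ± 0.29 SE, adjusted p = 7.43e-04).

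Among the 8 largest falls, VGF, the precursor of neurosecretory peptides (hg38 chr7:101162509-101165569, minus strand), was at 3551, 3547 and 3146 CPM in CC, 10.3, 10.7 and 15.8 CPM in PC and 60.2, 60.5 and 74.3 CPM in TC. It was lower in PC than in both groups, with log2 fold changes of -8.12 ± 0.18 and -2.40 ± 0.15 SE. SYTL5, a partner of the vesicle protein RAB27, fell from 324, 245 and 269 CPM to 0.759, 0.543 and 0.764 CPM (log2 fold change -8.67 ± 0.25 SE, adjusted p = 7.77e-11), and GJB1, the connexin 32 gene, from 62.6, 62.0 and 75.5 CPM to 0.576, 0.370 and 0.393 CPM (log2 fold change -7.23 ± 0.17 SE, adjusted p = 2.22e-11). SERPINA3, a secreted protease inhibitor, was at 6137, 6885 and 5284 CPM in CC, 38.0, 47.3 and 70.7 CPM in PC and 245, 249 and 445 CPM in TC. Among genes with a mean count of at least 1000, it was one of the 4 that fell most against TC (log2 fold change -2.59 ± 0.26 SE, adjusted p = 2.57e-05). ABCB1, the drug efflux pump P-glycoprotein, was another, at 71.9, 63.2 and 62.6 CPM, 4.48, 4.43 and 4.88 CPM and 44.4, 43.0 and 46.0 CPM in CC, PC and TC (log2 fold change -3.27 ± 0.08 SE, adjusted p = 8.17e-10). DHRS3, a retinaldehyde reductase, was at 186, 206 and 124 CPM, 48.8, 43.8 and 40.8 CPM and 338, 309 and 293 CPM in the same order. DHRS3 was thus highest in TC and lowest in PC (log2 fold change -2.82 ± 0.16 SE, adjusted p = 4.72e-07). PRELP, a matrix proteoglycan, was at 4.07, 3.32 and 2.86 CPM, 65.7, 73.8 and 77.8 CPM and 11.9, 12.1 and 13.5 CPM. At the same mean count, it was the 1 gene not of the cell cycle among the 4 with the largest rise over TC (log2 fold change 2.54 ± 0.13 SE, adjusted p = 1.94e-07).

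RC libraries, harvested after 9 days without drug, give the levels of the same lists at a later day, and no test was run on them here. The median of the neural crest list relative to the CC mean was between 1.27 and 1.39 in PC and between -0.19 and -0.05 in RC on the log2 scale. That of the ERK-dependent list was between -2.96 and -2.73 in PC and between -0.35 and -0.19 in RC. The ATF4 list was between -2.40 and -2.11 in PC and between -1.13 and -0.57 in RC, below each CC library. The synthetases were between -1.36 and -1.32 in PC and between -0.69 and -0.40 in RC. For these 4 of the 29 lists the RC libraries were nearer to CC than the PC libraries were, while the mitotic list in RC stood above the CC mean.

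**Figure D5:**
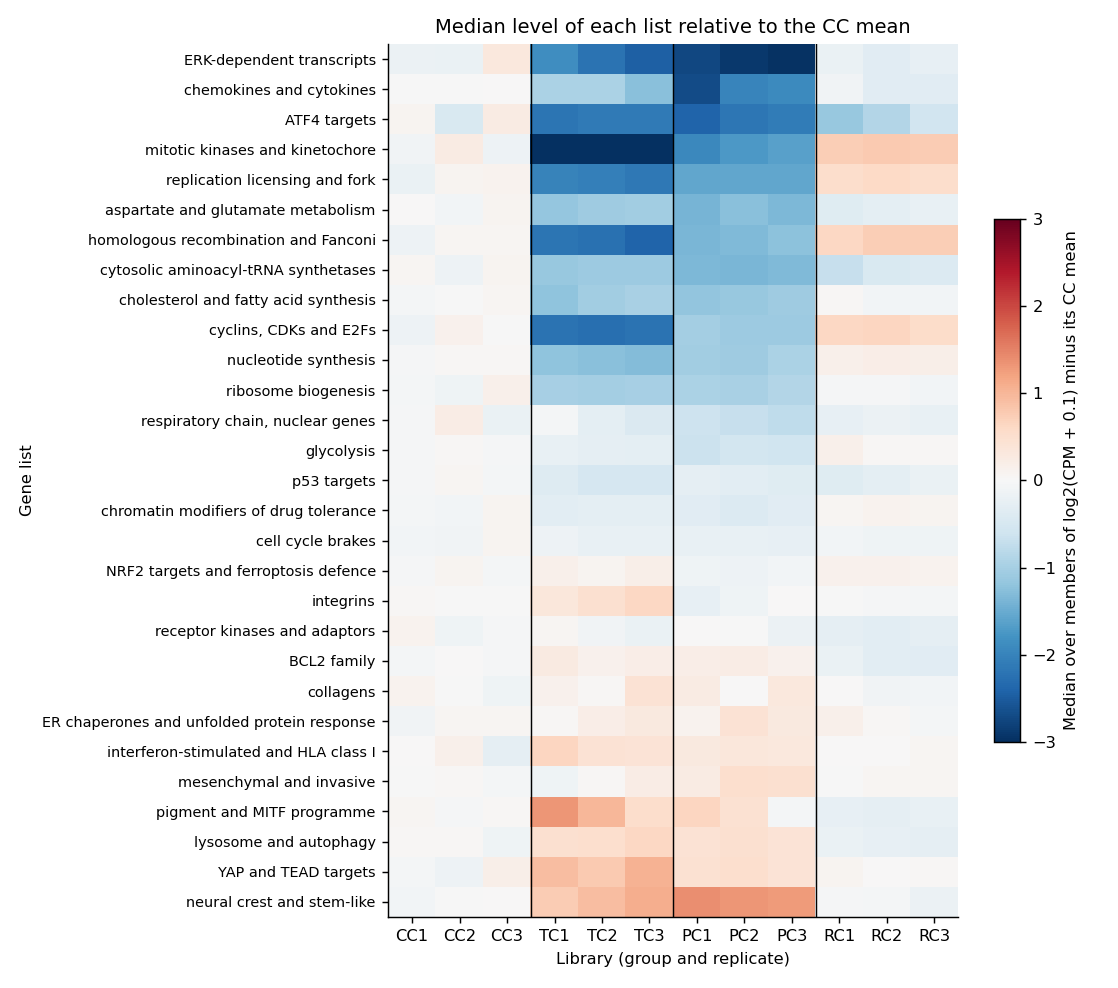
For each list and library, the median over members of log2(CPM + 0.1) minus the mean of the CC libraries of that gene, from blue (lower) to red (higher). In PC the ERK-dependent, ATF4 and mitotic lists are blue and the neural crest list is red; in RC the mitotic and repair lists are red and the ATF4 list is still pale blue.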

How the data were processed

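RNA sequencing libraries of A375 cells in 4 groups of 3 (CC, TC, PC and RC) were used as deposited raw read counts per gene. Per the labels and the study's methods, the authors trimmed the reads with fastp 0.20.1, aligned them with HISAT2 2.2.1 to GRCh38.p13 and made these counts with HTSeq 0.13.5 on the NCBI annotation. Strand and multi-mapping settings are not given in the sources used here, so overlapping genes and near-identical copies are uncertain, as are genes listed with unexpectedly few counts such as ASNS.

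Counts were fitted for all 12 libraries with edgeR 4.0.16 (TMM scaling, quasi-likelihood test, R 4.3.3) over the 15916 of 44659 genes with a mean scaled count of at least 10, with 8 residual degrees of freedom and Benjamini-Hochberg adjustment over all genes tested. Fold changes beyond 1.5-fold were tested with glmTreat. Adjusted p-values in the report come from the quasi-likelihood test. The scripts were tested on simulated data. Depth was between 37773389 and 55567097 counts per library, and intervals from counts cover counting error only. Coding sequences came from the canonical transcripts of the reference annotation, promoters from RefSeq. DESeq2 1.42.0, other scaling, filters, sample sets and leaving out each library were tried as alternatives. The replicate block for amino acid frequencies was added after seeing the data.

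Genes were named from index genes of each list, up to 2 largest rises and falls per list at a mean count of at least 100, and the 8 (against CC) or 4 (against TC) largest each way over all genes at a mean count of at least 1000. The gene lists and the comparison were chosen with earlier results of these data known. Some named genes are not reported here.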

Additional observations from a re-analysis of the deposited data

How the results depend on the processing

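Leaving out 1 library at a time gave 4936 to 5453 genes higher and 5310 to 5686 lower in PC than in CC, and 2524 to 2855 and 2938 to 3156 beyond 1.5-fold. Against TC it gave 1381 to 1809 higher and 1259 to 1772 lower, and 284 to 360 and 128 to 198 beyond 1.5-fold. DESeq2 called 5366 higher and 5464 lower than in CC, 2259 and 2502 beyond 1.5-fold, and 2230 and 2078 against TC, 304 and 137 beyond 1.5-fold. Of 2147 values of the 179 named genes under the alternatives, 2112 kept their direction and call, 16 lost the call, 13 gained one and 6 reversed. Leaving out 1 library gave log2 fold changes from -0.37 to 0.22 for MCL1, from -0.16 to 0.13 for MDM2 and from -1.04 to 0.80 for NDUFS1, the positive ends being without CC replicate 3, 3 and 2. MDM2, at -0.016 in the report's fit, was also at 0.0095 with median ratio (RLE) factors, 0.0055 with only the 2 groups compared and 0.0090 with DESeq2, and it passed the test in none of these. The cause was not tested. Of 290 list medians under alternatives, 26 moved by over 0.1 and 2 changed sign, both of the receptor kinases, whose median is near 0. Without a fold threshold, the differences of genes that fell minus genes that rose were 0.253 points for glutamate, 0.185 for aspartate and 0.179 for asparagine, a setting that takes in genes with smaller changes. Leaving out 1 library gave 0.292 to 0.433 for glutamate, 0.198 to 0.275 for aspartate, 0.545 to 0.699 for lysine and 0.189 to 0.262 for asparagine.

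With the replicate number as a block, 5319 genes were higher and 5696 lower than in CC, and 1994 and 2044 against TC. The labels do not say that a number marks a shared culture or day, and same-numbered CC and PC libraries correlated at 0.0385, 0.0403 and 0.00936 in their deviations from the group means, and same-numbered TC and PC libraries at 0.143, 0.0657 and 0.112. Each PC library correlated best with its own number in CC and in TC, as a hint from the data and not from the design. With the block, glutamate was at 0.365 points, a fit chosen after seeing the data.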
